A study of Homo sapiens with 15 samples.

Results

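The genes described are those of the cytosolic ribosomal proteins, the protein part of the machine that translates nuclear mRNAs. They were picked by a rule on the name, set with earlier results of these data known. It took every protein-coding gene whose symbol begins with RPL or RPS followed by a digit, plus RPSA, RPLP0, RPLP1 and RPLP2. It left out the RPS6 kinases and pseudogenes. The rule gave 91 genes, of which 46 encode proteins of the large subunit, 31 encode proteins of the small subunit, 10 are paralogs such as RPL22L1, 3 are readthrough transcripts, and 1, RPS19BP1, encodes a binding partner of RPS19 that matches the rule by spelling only. Of the 91 genes, 87 were joined to a probe through its RefSeq accession, and all 87 were among the 26825 gene or probe features tested. RPSA, RPL10, RPS10-NUDT3 and RPL17-C18orf32 were not analysed here, and RPS4Y1 and RPS4Y2 were counted without giving their values.

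The cells were A2058, an established human melanoma line, harvested 8 h after treatment. Arrays were made in 5 groups of 3 replicates: DMSO, the solvent control; NP at 3 µM; W, the water control; MET, metformin at 5 mM; and PHEN, phenformin at 50 µM. The sample titles hold only the letters NP, which the labels of the series give as neopetasin. The study, however, describes petasin at that dose in that line, and nothing in the arrays tells the compounds apart. NP was read against DMSO, and each biguanide against W, so both biguanide comparisons share the same W arrays. The study's methods call the replicates biological and taken from distinct samples.

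The cytosolic ribosome has a small subunit, which reads the codons of the mRNA, and a large subunit, which joins amino acids and holds the stalk that recruits elongation factors. Its proteins are made in nearly every growing cell from abundant mRNAs, most of which start with a 5′ terminal oligopyrimidine (TOP) stretch, a C followed by further C or T bases. Translation of TOP mRNAs is known to depend on the kinase complex mTORC1 and on LARP1, so that the output of these genes can be altered with no change in mRNA level. Arrays such as these read the mRNA level alone. NP, metformin and phenformin were compared in the study as inhibitors of complex I of the mitochondrial respiratory chain, and the question put to the ribosomal protein genes was whether their mRNAs moved with treatment.

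The shared start of these genes is shown first, because it is the sequence feature they have in common beyond the name that chose them. RefSeq start sites on GRCh38.p14 were at hand for 72 of the 91 genes, and 49 of these (68.1%) had at least 1 annotated start with a run of 5 or more C or T bases beginning with C at the first transcribed base. The same held for 6.24% of 15842 protein-coding genes. Among the 62 large and small subunit genes with an entry the share was 74.2%, in 46 genes, with runs of 5 to 19 bases and a median of 8. The most frequent first 5 bases were CTCTT, in 12 genes, and CCTTT, in 9 genes. Of the 8 paralogs with an entry, 2 had such a start. The windows below hold 12 bases before the first transcribed base and the 18 bases from it on, at the start of the first exon, with the run in capitals. RPL27A and RPL11 are shown as the genes with the largest fall and rise under NP, RPS12 for its uneven level between slides, RPL21 for its many probes, RPS6 and RPLP2 as members with well known roles, and the last 6 as parents each followed by its paralog.
RPL27A, chr11:8682780-8682809, plus strand: gcgaaggccttcCTTTTTCgtctgggctgc
RPL11, chr1:23691794-23691823, plus strand: aagctccgctttCTCTTCCTgctctccatc
RPS12, chr6:132814557-132814586, plus strand: tgcggatgaggcCTCTTTCCCTgccgccgc
RPL21, chr13:27251546-27251575, plus strand: ccccgcctctttCCTTTCggccggaaccgc
RPS6, chr9:19380219-19380248, minus strand: cggaagttggccCTCTTTTCCgtggcgcct
RPLP2, chr11:809955-809984, plus strand: cgtcggcgccttCCTTTTCCTCCCTgtcgc
RPL22, chr1:6199578-6199607, minus strand: ttcgctcacctcCCTTTCTaactccgctgc
RPL22L1, chr3:170870178-170870207, minus strand: ggccgtagcttcCTCTCTgctctcgcggcc
RPS27, chr1:153990750-153990779, plus strand: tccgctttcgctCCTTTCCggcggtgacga
RPS27L, chr15:63157460-63157489, minus strand: ttgatgccgagcgcagatcgcttgcagctt
RPL26, chr17:8383176-8383205, minus strand: cagcgtgtagttCTCTTCCCTTTTgcggcc
RPL26L1, chr5:172958717-172958746, plus strand: cttccaggggtcggcgaacgaaacgcggag
RPL22L1 shared the pyrimidine start with its parent RPL22, whereas no such run stood at the listed starts of RPS27L and RPL26L1. Upstream letters differed less from other genes. Over the 300 bases from 250 before the start to 50 after it, searched on both strands, CCGGAAG was in 33.3% of the 72 genes and in 16.5% of all protein-coding genes. AAGATGGC was in 9.72% against 4.66%, and TATAAA in 11.1% against 12.4%. No motif contains another. These are matches of letters and not measured binding sites.

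All levels are log2 of the background-subtracted probe signal minus the log2 75th percentile of that array, so that 0 stands for the 75th percentile. Between 25803 and 45042 of 58201 probes per array were well above background. The median over the 87 genes lay between 9.09 and 9.39 on the 15 arrays, from 9.09 to 9.25 in the DMSO and NP arrays and from 9.21 to 9.39 in the W, MET and PHEN arrays. The 85 genes with printed levels were well above background on all 15 arrays, and none of their spots was saturated. The brightest, RPS2, reached between 26.4% and 61.2% of the scanner's saturation value. The lowest shares, 26.4% and 27.2%, were those of DMSO and NP replicate 3, which shared a slide. Before scaling, the log2 75th percentile was 7.17 and 7.18 on these arrays and 7.79 to 8.10 on the others. The SD within groups was 0.11 at the median gene and 0.04 to 0.48 over the genes. Of the lineage markers checked, MITF, SOX10, PMEL, DCT and S100B were above background on all 15 arrays, as were 5 of the other 6, and TYR was on 13. Some markers of other cell types were also above background on all 15 arrays: the epithelial KRT8 and KRT18, the fibroblast LUM and COL1A1, the immune PTPRC and CD79A, and the endothelial PECAM1, VWF and CDH5. DCN was so on 12, CD3E on 11, KRT19 on 10, PDGFRA on 6 and HBB on 4, and EPCAM, CDH1 and COL1A2 on 0. The part of such RNA in the results was not tested.

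None of the ribosomal protein genes changed with any of the 3 compounds by the limits of the study, a fold change of at least 1.5 and, here, an adjusted p of at most 0.05 (limma with Benjamini-Hochberg adjustment over all 26825 features). With NP, 0 of 87 genes were called, where 10 of all features were (0.0373%). With MET, 0 of 87 were called, as were 0 of all features (0%). With PHEN, 0 of 87 were called, where 7 of all features were (0.0261%). A count of 0 among 87 is therefore near the background. At an unadjusted p of at most 0.05 with no fold limit, the count among the ribosomal protein genes was also 0 in each comparison. The shares of all features were 4.69%, 2.46% and 2.35%. In this fit the smallest unadjusted limma p among the genes was 0.0690 with NP, 0.131 with MET and 0.271 with PHEN. That count depended on the block. With replicates paired within each set of slides it was 1 with NP, 2 with MET and 1 with PHEN. With slide as a fixed block it was 1, 2 and 0. No share of all features stands beside these other counts.

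The fitted changes of these genes were small in size. The median log2 fold change over the 87 genes was 0.02 with NP, 0.04 with MET and 0.01 with PHEN, beside −0.01, 0.00 and −0.03 over all features. Fitted values were above 0 for 56, 68 and 44 genes, in 46.2%, 51% and 40.5% of all features. The SD between genes was 0.07, 0.07 and 0.06, less than the median standard error of a single gene in this fit, 0.10. That standard error was 0.07 with replicates paired within each set of slides and 0.07 with slide as a fixed block, close to those SDs. The lower and upper quartiles were −0.02 and 0.05 with NP, 0.01 and 0.07 with MET, and −0.03 and 0.04 with PHEN. Large and small subunit genes gave medians of 0.02 and 0.01 with NP, 0.05 and 0.04 with MET, and 0.01 and 0.01 with PHEN. The 10 paralogs gave 0.04, −0.02 and −0.03.

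A p that misses a threshold does not show that levels were alike, so the intervals were read as well. The 95% interval of the fold change lay wholly within 1.5-fold in either direction for 83 of 87 genes in each comparison, where the shares of all features were 53.4% with NP, 53% with MET and 55.2% with PHEN. Interval width follows the standard error, whose median was 0.10 for these genes and 0.19 over all features in each comparison. The contrast in shares is therefore no measure of stability under treatment. The 4 genes with wider intervals were RPL27A, RPS12, RPL3L and RPL36A-HNRNPH2 in each comparison. These counts hold for scaling at the 75th percentile: with each array centred on its median the typical standard error was 0.32 and no interval of the 87 genes stayed within 1.5-fold.

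**Figure D1:**
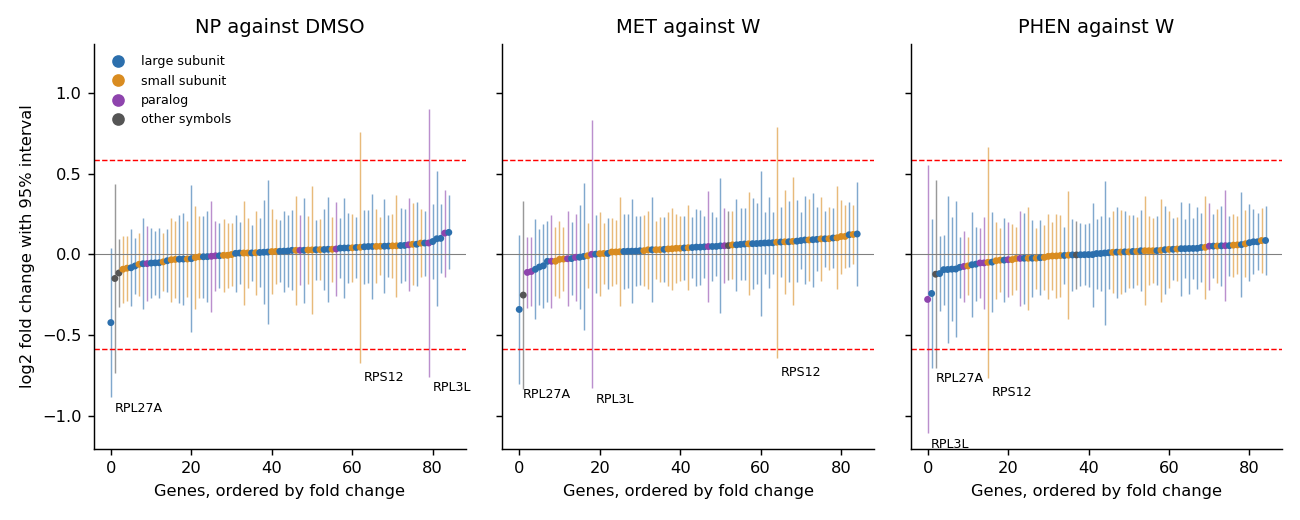
log2 fold change (points) and 95% interval (lines) of 85 ribosomal protein genes in each comparison, ordered by fold change, with red dashed lines at 1.5-fold. Nearly all intervals stay between the dashed lines, and the exceptions are RPL27A, RPS12, RPL3L and RPL36A-HNRNPH2.

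The median over the set differed between replicate pairs, in size and in sign. With NP the median over the 87 genes was −0.02 in the first pair, 0.06 in the second and −0.01 in the third. With MET it was 0.14, −0.02 and −0.01, and with PHEN 0.10, −0.01 and −0.08. The higher value of the first pair stands beside the lowest of the 3 W medians, 9.21 in W replicate 1, an array that both biguanide comparisons share. Without replicate 1 the median became −0.01 with MET and −0.04 with PHEN.

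Counts of genes that moved one way in all 3 pairs were close to those of all features for rises and below them for falls. Higher in all 3 pairs were 12 genes with NP, 21 with MET and 15 with PHEN, beside 14.3%, 22.3% and 12.2% of all features. Lower in all 3 pairs were 6, 3 and 5 genes, beside 18.9%, 20.3% and 14.8%. The treated and control arrays did not overlap, with the treated arrays higher, for 1 gene with NP, 11 with MET and 4 with PHEN, beside 3.02%, 3.48% and 3.83% of all features, and with the treated arrays lower for 1, 2 and 1, beside 3.42%, 2.28% and 4.31%. The 11 genes with MET were 12.6% of the 87. The gaps between such groups were at most 0.07. Both biguanides were read against the same W arrays, and RPL13, RPL21, RPL35 and RPS18 were the 4 genes higher without overlap in the PHEN arrays.

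RPL27A, a protein of the large subunit, had the lowest fitted value of the subunit genes in every comparison. Its levels were 0.92, 0.61 and 0.37 in the DMSO replicates and 0.65, 0.19 and −0.20 in the NP replicates. Each NP array was below its own DMSO array, but the groups overlapped, since replicates of 1 group differed by more than the change and stood in the same order in both. The W replicates were at 0.19, 0.32 and 0.41, the MET replicates at −0.23, 0.02 and 0.12, and the PHEN replicates at 0.01, 0.05 and 0.14. Every MET and PHEN array was below every W array. The log2 fold change was −0.42 with NP (SE 0.21, 95% interval −0.88 to 0.04, limma adjusted p = 0.9999), −0.34 with MET (−0.80 to 0.12) and −0.24 with PHEN (−0.70 to 0.22). None of these passed the test. It was the 1 gene of the 85 that was lower in all 9 pairs. The MET and PHEN pairs share their W arrays, so the 9 are not separate. The share of all features that were lower in all 9 was not counted.

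The size and error of the RPL27A values depended on how slides were handled. With replicate numbers paired within each set of slides, the NP value kept its size with a standard error of 0.08. Its interval was then −0.60 to −0.25. The unadjusted limma p was 0.000574 with NP, 0.00213 with MET and 0.0132 with PHEN. After adjustment the limma p was 0.103, 0.429 and 0.615. RPL27A was read by 1 probe, whose signal was between 127 and 447 units on the 15 arrays. Its mean level was 0.24, whereas the other subunit genes had means from 6.74 to 10.76, a contrast between probes that also holds their differing affinities. No second probe for RPL27A was there to set beside it.

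A low value also came from a single dim probe of RPS26, a small subunit protein. That probe, 1 of 3 above background for the gene, gave −0.43 with NP (unadjusted p = 0.0158), while the value of the brighter probe used in the test was −0.05. It was the only one of the 158 ribosomal protein probes above background on all arrays with an unadjusted p of at most 0.05 in any of the 3 comparisons, and none reached 1.5-fold. For the 41 genes with several such probes, 114 in all, the spread between the highest and the lowest probe value was 0.07 with NP, 0.06 with MET and 0.05 with PHEN at the median gene, and at most 0.39, 0.23 and 0.25. RPL21, read by 9 probes, ranged from −0.06 to 0.17 with NP, from −0.13 to 0.10 with MET and from −0.09 to 0.06 with PHEN. The probes of RPL21 thus did not share a direction.

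RPS12, a small subunit protein, had the largest spread within groups. It stood at 9.44, 9.47 and 8.25 in the DMSO replicates and at 9.57, 9.54 and 8.18 in the NP replicates. Replicate 3 of both groups, which lay on a slide of its own, was lower by over 1 log2 unit. The W replicates were at 9.01, 9.06 and 9.08, the MET replicates at 9.14, 9.12 and 9.11, and the PHEN replicates at 9.07, 8.87 and 9.07. The change with NP was 0.04, with an interval of −0.67 to 0.76 that narrowed to −0.12 to 0.21 when replicates were paired within each set of slides. RPL14 followed the same pattern, with 9.43, 9.35 and 8.67 in DMSO and 9.53, 9.43 and 8.78 in NP. The part of the slide in these values was not tested apart from the replicate.

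RPL11 and RPL5 join the 5S rRNA particle and are known for binding MDM2 when free of the ribosome. RPL11 had the largest rise with NP, from 9.43, 9.37 and 9.18 in DMSO to 9.52, 9.43 and 9.43 in NP. The NP arrays were all above the DMSO arrays by a margin under 0.01. The log2 fold change was 0.14 (interval −0.09 to 0.36), and it was 0.02 with MET and −0.06 with PHEN. RPL5 stood at 9.03, 8.99 and 9.11 in DMSO and at 9.06, 8.99 and 9.23 in NP, groups that overlapped, with a change of 0.05. Its changes were −0.03 with MET and 0.02 with PHEN.

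RPLP0, RPLP1 and RPLP2 form the stalk of the large subunit, and RPLP0 serves widely as a reference gene in qPCR. RPLP0 was at 9.30, 9.17 and 9.62 in DMSO, at 9.25, 9.20 and 9.55 in NP, at 9.46, 9.62 and 9.43 in W, at 9.52, 9.61 and 9.56 in MET and at 9.55, 9.55 and 9.53 in PHEN. The groups overlapped in each comparison, and the changes were −0.03, 0.06 and 0.04. The spread among the DMSO arrays was wider than any of these changes. RPLP1 changed by 0.05, 0.09 and 0.04, and RPLP2 by 0.05, 0.07 and 0.04. RPLP2 lay between 9.79 and 10.19 over all 15 arrays.

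RPS6, the small subunit protein phosphorylated by the S6 kinases, was at 9.50, 9.39 and 9.59 in DMSO and at 9.53, 9.48 and 9.56 in NP. In W it was at 9.60, 9.63 and 9.63, in MET at 9.78, 9.64 and 9.56, and in PHEN at 9.60, 9.68 and 9.55. The groups overlapped in each comparison, and the changes were 0.03, 0.04 and −0.01. RPS27A, which is made as a fusion with ubiquitin, changed by −0.02, 0.08 and 0.04.

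The other subunit genes with large values by rank had changes of 0.13 or less in size. Among rises with NP, RPL23 gave 0.10, RPL14 0.10 and RPL12 0.08. RPL23 went from 10.15, 10.06 and 9.85 to 10.20, 10.16 and 10.02, higher in each pair with overlapping groups. Among rises with MET, RPL13A gave 0.13 and RPL3 0.12. RPL13A was at 9.36, 9.46 and 9.49 in W and at 9.52, 9.55 and 9.62 in MET, which did not overlap. Among rises with PHEN, RPL29 gave 0.09, RPS28 0.09, RPL28 0.08 and RPL3 0.08, where the value of RPL28 turned to −0.08 as the mean of its probes. RPL3, which lies near the peptidyl transferase centre, and RPL21 were the 2 genes of 85 that were higher in all 9 pairs. The share of all features that were so was not counted, and the MET and PHEN pairs share their W arrays. RPL3 was at 8.90, 8.72 and 8.70 in DMSO and at 8.90, 8.90 and 8.74 in NP, a first pair that differed by less than 0.01. For falls, beside RPL27A and RPL36A-HNRNPH2, RPS19BP1 gave −0.11 and RPS9 −0.09 with NP, RPL9 −0.09 and RPL26 −0.08 with MET, and RPL26 −0.12 and RPL24 −0.09 with PHEN.

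RPL28 showed how small a difference could part groups of 3. It was at 8.61, 8.60 and 8.57 in DMSO and at 8.54, 8.52 and 8.50 in NP, a fall of 0.07 (interval −0.25 to 0.10) with no overlap. In W it was at 8.76, 8.88 and 8.80, in MET at 8.90, 8.90 and 8.91, and in PHEN at 8.85, 8.88 and 8.94, with changes of 0.09 and 0.08. These are values of the brightest of its 3 probes above background on all arrays. The 3 ranged from −0.24 to −0.07 with NP, from 0.00 to 0.09 with MET and from −0.17 to 0.08 with PHEN, and the mean of the gene's probes gave −0.18 with NP. The gap between DMSO and W, −0.22, was larger than any of the treatment differences. The readthrough transcript RPL36A-HNRNPH2 was at 1.91, 1.92 and 0.95 in DMSO and at 1.66, 1.76 and 0.92 in NP. Its value of −0.15 had an interval of −0.73 to 0.43, and those with MET and PHEN were −0.25 and −0.12.

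The paralogs gave no change that passed the test, beside parents that gave none either. RPL22L1, which can take the place of RPL22 in the large subunit, was at 8.07, 8.16 and 8.04 in DMSO and at 8.14, 8.37 and 8.15 in NP. It was higher in each pair, by 0.13 in the fit (interval −0.14 to 0.40), while RPL22 gave 0.06. With MET and PHEN, RPL22L1 gave −0.02 and 0.05 and RPL22 −0.07 and −0.03. RPS27L, known as a target of p53, gave 0.03, −0.03 and −0.02, and RPS27 0.05, 0.10 and 0.03. RPS27L was at 6.71, 6.55 and 6.90 in DMSO and at 6.67, 6.63 and 6.96 in NP, which overlapped.

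RPL26L1 gave −0.01, −0.11 and −0.07 with NP, MET and PHEN, and RPL26 gave 0.06, −0.08 and −0.12, where the NP value was 0.15 as the mean of its probes. RPL36AL gave 0.06, −0.04 and −0.05 beside 0.03, 0.03 and −0.06 for RPL36A. RPL39L, best known from testis, gave 0.03, −0.11 and −0.05 beside 0.02, −0.04 and 0.02 for RPL39. RPL7L1 gave −0.06, 0.05 and −0.03 beside 0.02, 0.07 and 0.01 for RPL7, and RPL10L gave −0.01, 0.05 and 0.05 with RPL10 not analysed here. RPL3L, the striated muscle form of RPL3, had levels of −3.69, −2.58 and −2.19 in DMSO and of −2.84, −2.87 and −2.54 in NP. Its values were 0.07, 0.00 and −0.28, each with a standard error of 0.37. Probes of near-identical paralogs can share target RNA, which was not tested here.

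The 44 subunit genes tested with such a start had medians of 0.02, 0.05 and 0.01 with NP, MET and PHEN, and the 16 without it had 0.02, 0.03 and 0.00. Other mRNAs known to begin with a TOP stretch, such as those of elongation factors, had medians of 0.00, 0.01 and 0.03 over 28 tested genes and 0 called in each comparison, with 3, 1 and 0 at an unadjusted p of at most 0.05. The SD between these genes was 0.15 with NP. In that list HSPA8, the constitutive HSC70 chaperone, gave −0.61 with NP (adjusted p = 0.131), −0.21 with MET and −0.22 with PHEN. EIF4A2 gave 0.23 with NP, EEF2 0.19 with MET and EIF3F 0.15 with PHEN. Ribosomal proteins under other names gave changes near 0 too: RACK1, the scaffold of the small subunit, gave −0.10, 0.14 and 0.05, and FAU gave −0.03 with NP.

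The genes that make and watch over the ribosome gave 0 calls in each comparison as well. The 112 tested ribosome biogenesis genes had medians of −0.03, −0.05 and −0.01, with 2, 1 and 0 at an unadjusted p of at most 0.05. Those were 1.79%, 0.893% and 0% of the list, beside 4.69%, 2.46% and 2.35% of all features. UBTF, a factor for transcription of rRNA genes by RNA polymerase I, gave −0.36 with NP (adjusted p = 0.942) and −0.23 with PHEN. EFL1 gave 0.24 with NP, WDR75 −0.26 and MPHOSPH10 −0.24 with MET, and RRP12 0.20 with PHEN. The 31 genes of translation initiation and mTORC1 output had medians of −0.03, 0.00 and 0.04, with 1, 0 and 0 at that unadjusted p. RPS6KB1, an S6 kinase, gave 0.44 with NP and AKT1S1 −0.23, while with MET EIF4EBP2 gave −0.24 and EIF1AX −0.24, and with PHEN EIF4EBP1 gave 0.23 and LARP1B −0.20.

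The 20 genes of ribosome quality control had medians of −0.03, −0.05 and 0.04, with 0, 0 and 1 at an unadjusted p of at most 0.05. ASCC2 gave 0.21 and ZNF598, which marks collided ribosomes, 0.21 with NP, ABCE1 −0.23 and ANKZF1 0.23 with MET, and ANKZF1 0.29 and ZNF598 0.13 with PHEN. The 17 genes of p53 and its targets had medians of −0.03, 0.03 and 0.04, and 0 were called in each comparison. At that unadjusted p there were 3, 1 and 2. These were 17.6%, 5.88% and 11.8% of the list, beside 4.69%, 2.46% and 2.35% of all features. BBC3 gave 0.48 with NP, 0.40 with MET and 0.42 with PHEN, MDM4 gave 0.40 with NP, CDKN1A 0.48 with MET and TP53INP1 −0.60 with PHEN, and none passed after adjustment.

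A list of 18 targets of ATF4, the transcription factor of the integrated stress response, was used to see whether the same arrays registered the compounds. All 18 had a fitted rise with each compound, and the medians were 1.07 with NP, 0.72 with MET and 0.80 with PHEN. Of the 18, 5 rose by the limits with NP, 0 with MET and 5 with PHEN, and 18, 14 and 18 had an unadjusted p of at most 0.05. NUPR1 rose by 1.69 with NP (limma adjusted p = 0.0295) and by 1.58 with PHEN (adjusted p = 0.0406), and gave 1.48 with MET. CHAC1, which breaks down glutathione, rose by 2.40 with PHEN, and gave 1.83 with NP and 2.14 with MET. INHBE gave 2.42 with NP. The level of this list was itself higher in DMSO than in W, by 0.45 at the median. Against DMSO its median was 0.25 with MET, with 13 of 18 above 0 and a lowest value of −1.06, and 0.47 with PHEN, with 15 of 18 above 0. This list was chosen with earlier results of these arrays known and is no independent support for its direction.

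**Figure D2:**
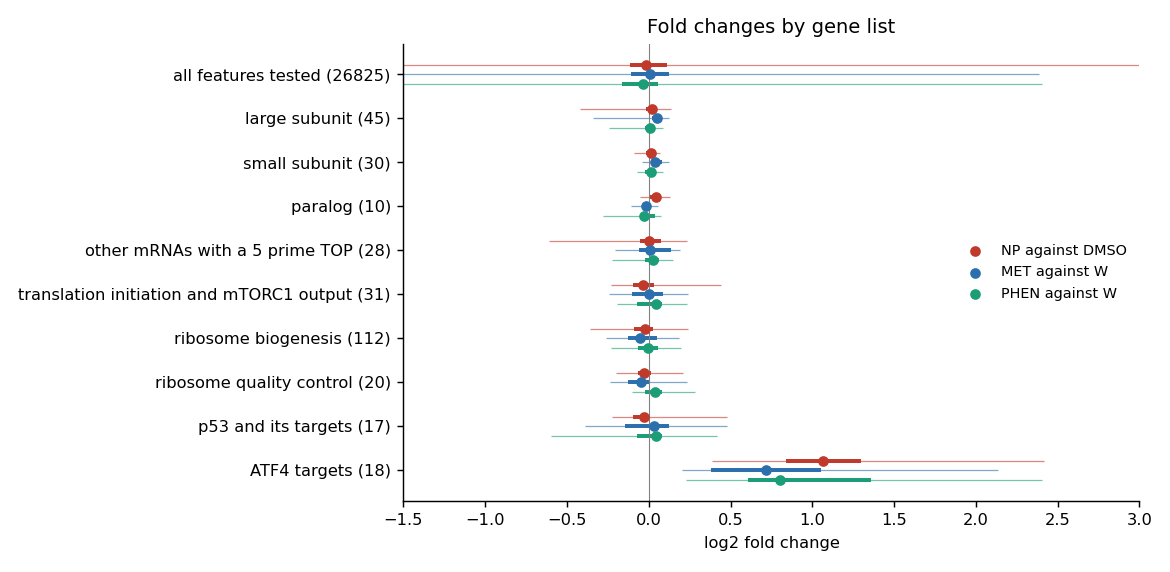
Median (points), quartiles (ends of the thick lines) and range (thin lines) of the log2 fold change for each gene list and comparison, with the number of tested genes in brackets and the range of all features cut at the edges of the axis. The ATF4 targets have medians of 1.07, 0.72 and 0.80, and the other lists centre near 0.

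NP, MET and PHEN were given at different doses, 3 µM, 5 mM and 50 µM, so their values stand side by side without a ranking of compounds. The difference between the effect of NP and that of MET or of PHEN, fitted as an interaction, reached an adjusted p of at most 0.05 for 0 of 87 genes (0% of all features in each) and an unadjusted p of at most 0.05 for 0 of 87, beside 2.78% of all features for MET and 2.43% for PHEN. For NP against MET its 95% interval lay within 1.5-fold in either direction for 79 of 87 genes and for NP against PHEN for 78. The shares of all features were 30.2% and 33.9%, and there too the median standard error was lower for these genes, 0.15 beside 0.27.

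In these genes the 2 control groups differed more at the median than any compound did from its own control. DMSO arrays lay on 2 slides with NP and W arrays on 2 other slides with the biguanides, so solvent and slide cannot be told apart. Against W, the DMSO arrays gave a median of −0.15 over the ribosomal protein genes and of −0.12 over all features. In that comparison 6 of 87 genes had an adjusted p of at most 0.05, all lower in DMSO, where 17.2% of all features passed and 12% were lower. They were RPS19BP1 at −0.54, RPL4 at −0.47, RPL7L1 at −0.45, RPS13 at −0.41, RPL22L1 at −0.41 and RPL26L1 at −0.37.

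With DMSO in place of W, as the study's methods compared every compound, counts for the biguanides followed this gap. With MET, 15 of 87 genes had an adjusted p of at most 0.05, 14 of them higher, where 26.4% of all features passed and 17.2% were higher, and 2 of 87 were also at least 1.5-fold, where 17% of all features were. These 2 were RPS19BP1, at 0.60 (adjusted p = 0.00302), and RPL27A, at −0.66 (adjusted p = 0.0394). With PHEN, 7 genes passed, all higher, where 17.9% of all features did and 11.4% were higher. None reached 1.5-fold, where 10.3% of all features did so. RPL4 gave 0.55 with MET and 0.49 with PHEN against DMSO, but 0.08 and 0.02 against W.

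**Figure D3:**
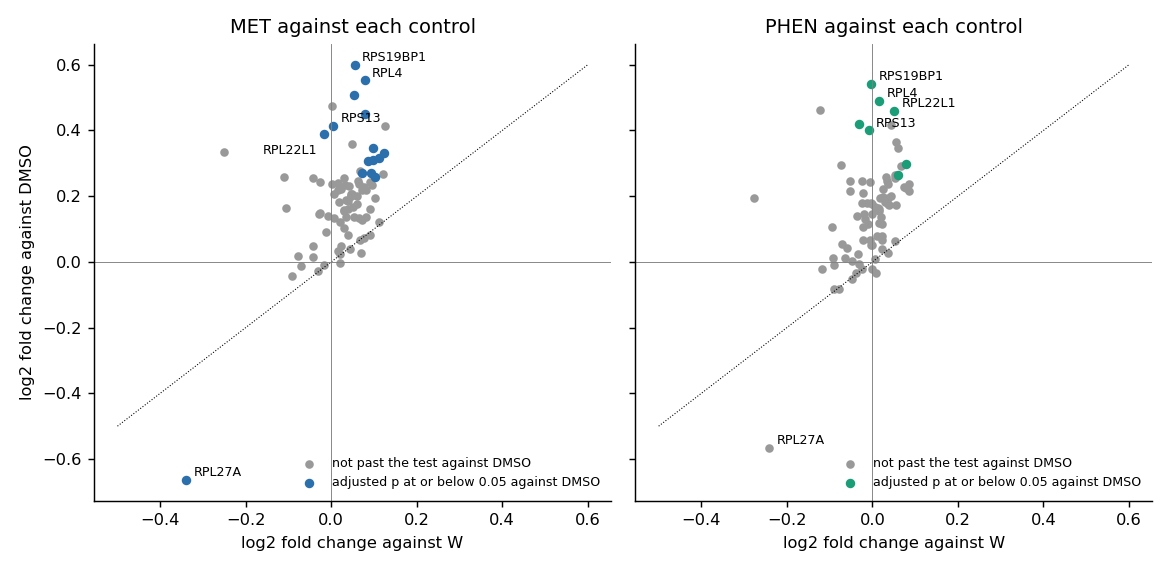
log2 fold change of 85 ribosomal protein genes with MET (left) and PHEN (right), against W on the horizontal axis and against DMSO on the vertical axis, with genes past an adjusted p of 0.05 against DMSO in colour. Most points lie above the dotted line of equal values, and RPL27A is low on both axes.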

How the data were processed

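RNA of 15 A2058 samples was hybridised to single-colour Agilent arrays of 58201 probes. The authors scanned them with Agilent Feature Extraction (10.7.3.1 per the file headers, 9.1 per the submitters' processing notes) and deposited the background-subtracted, detrended intensity of each probe, with no scaling between arrays. They also deposited a log2 table scaled at the 75th percentile, with values under 4 set to 4, which was used as an alternative only. Here the log2 intensity minus each array's 75th percentile was fitted in limma 3.58.1 (R 4.3.3). The model held 5 groups and the replicate number as a block, taken up because the study's methods used a paired test. That block gave all 5 groups a shared term per replicate number, so treated and control arrays were not paired within a set of slides. The median standard error of the ribosomal protein genes was 0.10, beside 0.11 with no block and 0.07 with pairing within each set. The fit used the probe of a gene with the highest mean, if well above background in all arrays of a group. Outlier spots were left out. Adjusted p-values are Benjamini-Hochberg over 26825 features. Probes were named through their RefSeq accession, which gave a symbol to 31100 of the 33080 probes with one.

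The members and lists were chosen with earlier results of these data known. Genes given with values were the 4 largest rises and falls per comparison among members other than paralogs, every paralog with its parent, RPL5, RPL11, the stalk proteins, RPS6 and RPS27A, and the 2 largest changes of each other list, of which a few are not reported here. RPS12, RPS26, RPL21 and RPL28, and the motifs other than the pyrimidine start, were chosen after their values were seen. Replicates of 1 number deviated together. Their correlations were 0.31, 0.33 and 0.65 for NP and DMSO and 0.86, 0.44 and 0.80 for MET and W. For PHEN and W they were 0.30, 0.24 and 0.40. Across numbers, replicates 1 and 2 gave 0.29 and 0.24 for NP and DMSO, nearly as much as replicates of like number. For MET and W these were −0.33 and −0.24, and for PHEN and W −0.05 and 0.05. Replicates 1 and 2 of a set shared a slide and replicate 3 lay on another, and each slide was scanned apart. The fit was tested on simulated data with independent noise and no slide or replicate effect. That test cannot show how the fit handles slides. The number of arrays limits precision. Alternatives changed the block, slide term, background correction, scaling, filter, probe rule, test, control and replicates.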

Additional observations from a re-analysis of the deposited data

How the results depend on the processing

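Under each alternative run against the same control, 0 ribosomal protein genes were called in any comparison, and with DMSO in place of W the count was 2 with MET and 0 with PHEN. The median over these genes, the number of narrow intervals and the calls over all features moved. Centring each array on its median turned the median change of the ribosomal protein genes with NP to −0.061 and raised it with PHEN to 0.28, and the median of all features moved with it to −0.10 and 0.24. With DMSO in place of W it was 0.20 with MET and 0.17 with PHEN, and calls over all features rose to 4568 and 2761. Leaving out 1 replicate gave medians from 0.00 to 0.03 with NP, from −0.01 to 0.07 with MET and from −0.04 to 0.05 with PHEN, with 0 calls over all features in each, and the number of genes with intervals within 1.5-fold then ran from 71 to 85.

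The replicate block moved calls over all features but no call of a ribosomal protein gene. Without it 3 features were called with NP and 0 with PHEN, and with the block set within each set of slides 52 with NP and 2 with MET. Slide as a fixed block gave 74, 6 and 17 with NP, MET and PHEN, slide beside the replicate block 63, 2 and 16, and slide as a random block 70, 3 and 14. Within the slide of replicates 1 and 2 the counts were 0 with NP and 0 with PHEN. With NP, normexp background correction on the median signals gave 26, quantile normalization 17, median centring 4 and probes above background on all arrays 26. No filter on dim probes, fits of only the groups compared, and the methods' t-test with Benjamini-Hochberg adjustment gave 0 with NP and 0 with PHEN. The methods' t-test without adjustment gave 214, 124 and 168 features, with the 1.5-fold limit. With no fold limit it passed 4 ribosomal protein genes with NP, 5 with MET and 5 with PHEN. RPL27A was in all 3, and no gene of the set passed after adjustment. No share of all features without the fold limit stands beside these gene counts. An unadjusted p with no fold limit in limma passed 1257, 659 and 631 features. RPL27A was lower under every setting with NP and MET, and with PHEN it ran from −0.57 to 0.03, the last with median centring.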
